A study of Mus musculus with 16 samples.

Results

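Endothelial cells line the blood vessels of the liver, and 39 genes that mark them or encode their signals were followed in RNA from livers of HFD-fed mice, that is, mice given a high-fat diet. A gene was taken when its symbol in the deposited tables equalled a listed symbol, whatever its values. All 39 were found among 55487 rows, and 39 of 39 passed the filter on low counts that left 13905 genes for testing. By role, 12 mark the sinusoidal endothelium, 17 mark endothelium in general, 5 are better known from larger vessels or their walls, and 5 encode secreted ligands of the Wnt and bone morphogenetic protein (BMP) pathways.

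The RNA came from whole livers of mice labelled with the strain C57/Bl6J and the genotype J1 J2 lf/lf in all 3 groups, and the series text names them as HFD-fed and hepatocyte-specific. The 5 GFP livers are the controls (LJ1J2control). The 5 Cre livers are named LJ1J27a and the 6 Flpo livers LJ1J27b, after the alternative forms (spliceoforms) 7a and 7b of the stress kinase JNK, whose roles on this diet the study asked about. The labels give neither sex nor age of the mice, nor the vector and promoter behind GFP, Cre or Flpo. Values per gene do not separate spliceoforms, so the recombination was not checked on them. Whether each library is from its own mouse is not stated, and a p-value here weighs a difference only against the spread from library to library. The titles number the libraries in runs that follow the groups, and a batch of harvest, had there been one, and the group cannot be told apart.

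Sinusoidal endothelial cells form the fenestrated, filter-like wall between blood and hepatocytes and take up waste proteins through scavenger receptors such as Stab1 and Stab2. They also speak to hepatocytes. Wnt2, Wnt9b and the Wnt amplifier Rspo3, made by endothelium near the central vein, keep the pericentral programme of hepatocytes on, and Bmp2 and Bmp6 from the sinusoid tell hepatocytes to make the iron hormone hepcidin.

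The libraries held 27929393 to 36043322 counts. Hepatocyte markers (10 genes such as Alb) summed to between 62349 and 88263 TPM (transcripts scaled for gene length and library total) per library, and the 39 endothelial genes to between 157 and 255 TPM. None of the 39 was at 0 in any library, and the lowest was Wnt9b with 9 counts in GFP replicate 1. In RNA of a whole tissue, fewer endothelial cells and less RNA per endothelial cell cannot be told apart. Several of the genes are also known from other liver cells, such as Fcgr2b in Kupffer cells, Gata4 in stellate cells and Aqp1 in bile duct cells.

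Levels between genes can be compared on the TPM scale, which allows for gene length. The highest mean TPM over the 16 libraries was that of Plvap, a component of the diaphragms of fenestrae and caveolae, at 27.9. Clec4g, a sinusoidal lectin, followed at 20.4, then the water channel Aqp1 at 16.97, the secreted angiogenic factor Egfl7 at 15.1 and the TGF-beta co-receptor Eng at 14.7. The libraries of these neighbours overlapped in level: Clec4g ranged from 11.1 to 27.8 TPM and Aqp1 from 12.1 to 23.6 TPM. The ligands stood lower. Bmp2 averaged 2.35 TPM, Rspo3 1.85, Wnt2 1.11 and Bmp6 0.892, and Wnt9b was the lowest of all 39 at 0.257 TPM.

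**Figure D1:**
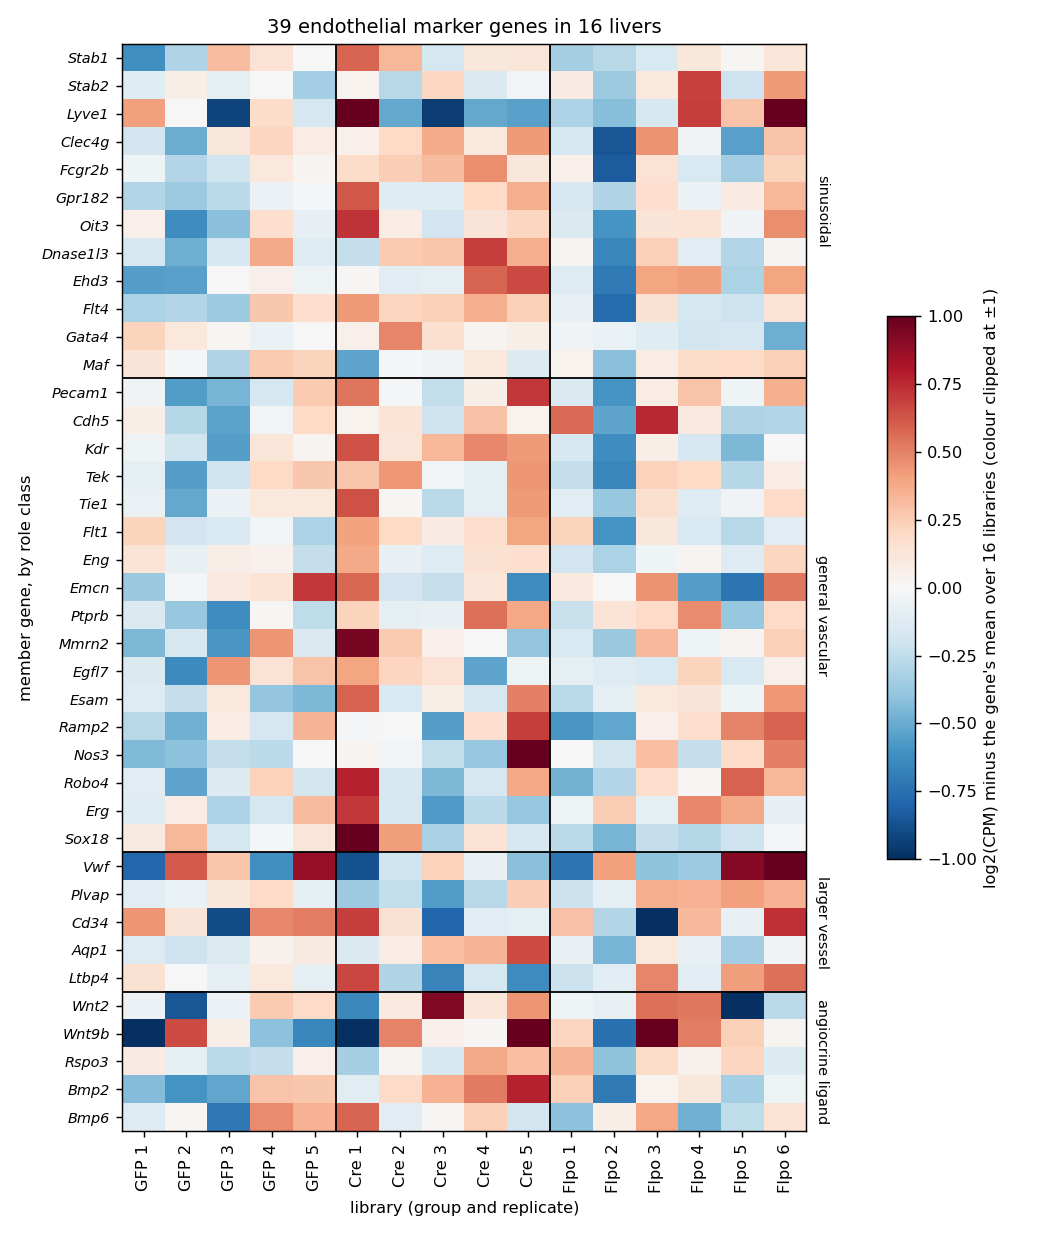
Each row is 1 of the 39 genes, ordered by role class, and each column 1 of the 16 livers. Colour is log2 CPM (counts scaled to the library total times its TMM factor) minus the gene's mean over all libraries, clipped at 1 either side. Flpo replicate 2 is blue in most rows, and Cre replicate 1 is red in most sinusoidal and general vascular rows but in 1 of the 5 ligand rows.

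Of the 39 genes, 32 had a log2 fold change above 0 in Cre against GFP, with a median of 0.27, against 50.2% of all genes tested and a median of 0.00. With library totals alone 27 were above 0, and on both TPM scales 22 were. Summed TPM of the 39 was 203 ± 20.7 in GFP and 201 ± 26.0 in Cre (SD, n = 5 each). Only Kdr passed the test (edgeR's quasi-likelihood test, Benjamini-Hochberg adjusted p under 0.05 over all genes tested). That is 1 of 39 called, where 9.55% of all genes were called in this comparison, 3.97% higher and 5.58% lower. At an unadjusted p under 0.05 there were 9 genes, all higher in Cre: Fcgr2b, Gpr182, Dnase1l3 and Flt4 of the sinusoidal class, Kdr, Ptprb and Esam of the general vascular class, Aqp1 and Bmp2. The background for that rule was 24.3% of all genes in both directions together. Of the 13905 genes tested, 1559 were higher and 1814 lower in Cre by that rule. Markers of hepatocytes had a median log2 fold change of 0.43 in this comparison (8 of 10 above 0), and those of lymphocytes and neutrophils 0.36 (9 of 10 above 0). Their part in the endothelial median was not tested.

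The median stayed above 0 under every scaling tried, but its size depended on the scaling. With library totals alone it was 0.12 while the median of all genes moved to -0.14. On log2(TPM + 1) it was 0.05 while the median of all genes was -0.12, and on log2(TPM + 0.1) the values were 0.08 and -0.18. The genes' median lay above that of all genes each time, as the plot of class medians by scaling shows.

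**Figure D2:**
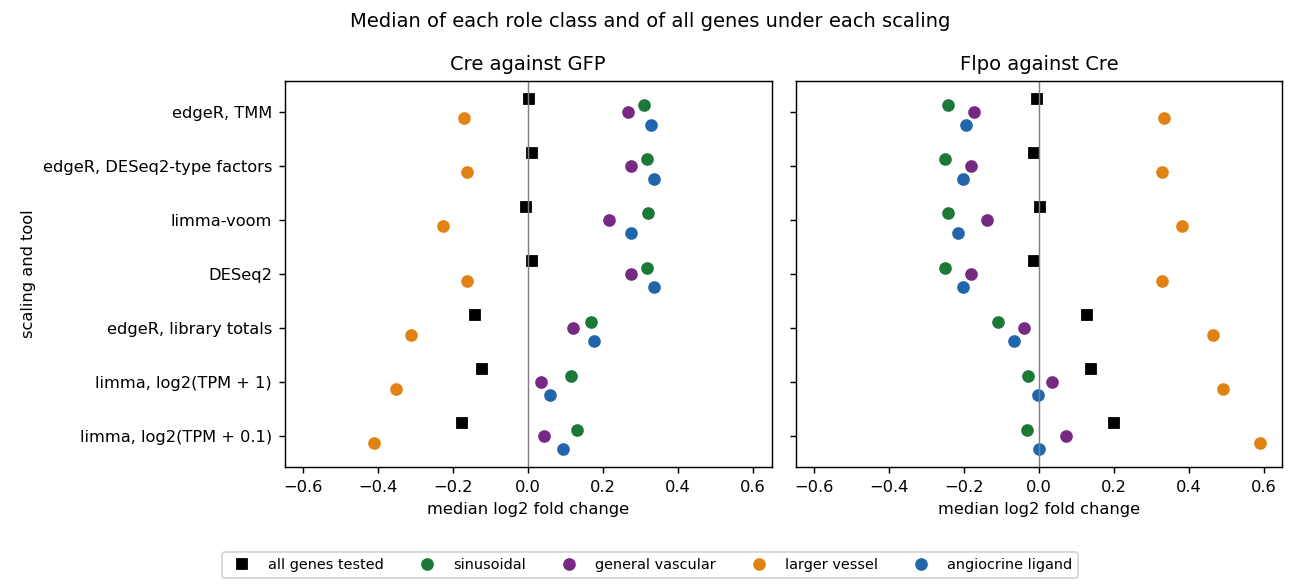
Median log2 fold change of each role class (circles) and of all genes tested (squares) under 7 combinations of scaling and tool, for Cre against GFP (left) and Flpo against Cre (right). Sinusoidal, general vascular and ligand medians lie to the right of the squares on the left and to the left of them on the right under all 7, and the larger vessel median lies on the other side.

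Kdr encodes the main VEGF receptor of endothelium (VEGFR2) and lies on chr5:75932827-75978458 of GRCm38, minus strand. It was at 14.6, 13.1, 10.3, 16.4 and 15.4 CPM in the 5 GFP livers and at 23.5, 16.4, 19.0, 21.1 and 20.3 CPM in the 5 Cre livers. In the 6 Flpo livers it ranged from 9.83 to 15.8 CPM, with a median of 13.5. Each Cre liver lay above each GFP and each Flpo liver, though Cre replicate 2 only just passed GFP replicate 4. The means were 14.0 ± 2.37 (SD, n = 5), 20.1 ± 2.63 (n = 5) and 13.1 ± 2.30 CPM (n = 6).

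Kdr rose in Cre against GFP by 0.52 on the log2 scale (SE 0.15, edgeR adjusted p = 0.0316). It was lower in Flpo than in Cre by a log2 fold change of -0.61 (SE 0.14, edgeR adjusted p = 0.00695), and Flpo against GFP gave -0.09 (SE 0.14, edgeR adjusted p = 0.866). The call against GFP rests on few libraries: edgeR's adjusted p of Kdr was 0.0623 without GFP replicate 2, 0.07 without GFP replicate 3, 0.0718 with Cre replicate 1 left out, 0.0513 without Cre replicate 4 and 0.0519 without Cre replicate 5. With library totals alone the Kdr fold change was 0.38 (edgeR adjusted p = 0.112), and on log2(TPM + 1) it was 0.26 (limma adjusted p = 0.224). The call of Kdr in Flpo against Cre held in 24 of 26 alternatives and was lost on both TPM scales, with limma adjusted p of 0.109 and 0.114.

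The sequences upstream of Kdr and Aqp1 are shown because the RNA of both was lower in Flpo than in Cre (values for Aqp1 follow). RefSeq's promoter table (GRCm38.p6) matched 21 of the 39 genes, with 27 start sites. The windows run 5′ to 3′ on the gene's strand and end 10 bases before the start site, at chr5:75978466-75978705 (minus strand) for Kdr and chr6:55336049-55336288 (plus strand) for Aqp1. Capitals mark the core of an ETS factor motif, searched as AGGAAG or CCGGAA on both strands. ETS factors such as Erg drive many endothelial genes.
Kdr: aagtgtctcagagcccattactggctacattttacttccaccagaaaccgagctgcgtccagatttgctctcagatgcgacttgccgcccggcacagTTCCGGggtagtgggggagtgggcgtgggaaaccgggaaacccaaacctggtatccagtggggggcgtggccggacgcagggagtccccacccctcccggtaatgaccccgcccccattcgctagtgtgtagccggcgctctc
Aqp1: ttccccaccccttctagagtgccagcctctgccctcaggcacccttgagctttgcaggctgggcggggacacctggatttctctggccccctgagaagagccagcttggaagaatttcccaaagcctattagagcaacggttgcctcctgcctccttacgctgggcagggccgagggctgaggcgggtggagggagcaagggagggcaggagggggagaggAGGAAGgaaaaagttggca
The match lies 153 bases before the start site in Kdr, as the reverse complement TTCCGG, and 29 bases before it in Aqp1. These distances are from RefSeq's start sites, and GENCODE M21 begins Aqp1 further downstream, at base 55336432. In the 250 bases before the start, 14 of the 27 windows of these genes (51.9%) held such a core, against 38.2% of all 32851 windows of the table. A GATA core, searched as AGATAA on both strands, was in 1 of the 27 windows (3.7%) and in 9.99% of all. A match of letters is no measure of binding.

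Among the sinusoidal genes, 11 of 12 had a log2 fold change above 0 in Cre against GFP, with a median of 0.31, and 0 were called (edgeR; 4 had an unadjusted p under 0.05, and limma-voom and DESeq2 also called 0). Gpr182, an atypical chemokine receptor of the sinusoid, had the smallest p of the class. It was at 8.37, 7.98, 8.56, 9.84 and 10.1 CPM in GFP and at 15.8, 9.41, 9.44, 11.8 and 13.2 CPM in Cre, with a log2 fold change of 0.41 (SE 0.15, edgeR adjusted p = 0.105). The groups overlapped, and Cre replicate 1 was the highest. Fcgr2b, a receptor that clears immune complexes, is named after its values were seen, since its groups did not overlap: 14.2 to 18.7 CPM in GFP and 18.9 to 24.1 CPM in Cre, with an edgeR adjusted p of 0.182. Groups that do not overlap, higher in Cre, were found for 2 of the 39 genes (Kdr and Fcgr2b) and for 3.56% of all genes. Maf, a transcription factor of the sinusoid, was the exception to the class direction at -0.18 (SE 0.14). The other genes of the class, among them the scavenger receptors Stab1 and Stab2, the hyaluronan receptor Lyve1 and the nuclease Dnase1l3, lay between 0.06 (Stab2) and 0.45 (Ehd3).

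Among the general vascular genes, 15 of 17 had a log2 fold change above 0 in Cre against GFP, with a median of 0.27. After Kdr, Ptprb, the endothelial receptor phosphatase that restrains the angiopoietin receptor Tek, came nearest to the threshold. Ptprb was at 22.8, 19.4, 16.4, 25.5 and 21.2 CPM in GFP, at 29.5, 23.6, 24.0, 37.0 and 33.0 CPM in Cre, and between 19.4 and 34.9 CPM in Flpo. Its log2 fold change was 0.48 in Cre (SE 0.16, edgeR adjusted p = 0.0724) and 0.35 in Flpo (SE 0.16, edgeR adjusted p = 0.479), both against GFP. Ptprb passed in Cre against GFP with DESeq2 (adjusted p = 0.0402) and, in edgeR, without Flpo replicate 5 (adjusted p = 0.05 after rounding). Junction and receptor genes used as general endothelial markers did not pass: Pecam1 was at 0.42 (SE 0.21) and the cadherin Cdh5 at 0.16 (SE 0.22), with edgeR adjusted p of 0.233 and 0.707. The remaining genes of the class ran from -0.17 (Emcn, an endothelial sialomucin, SE 0.31) to 0.58 (Nos3, the endothelial nitric oxide synthase, SE 0.31). For Nos3, Cre replicate 5 was at 4.47 CPM and the next Cre liver at 1.72 CPM, within reach of the highest GFP liver at 1.69 CPM.

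Of the larger vessel genes, 4 of 5 had a log2 fold change below 0 in Cre against GFP, with a class median of -0.17, and 0 were called (edgeR; 1 had an unadjusted p under 0.05, and limma-voom and DESeq2 also called 0). The blood clotting factor Vwf was at -0.44 (SE 0.38), Plvap at -0.23 (SE 0.15), the sialomucin Cd34 at -0.17 (SE 0.39) and the TGF-beta binding protein Ltbp4 at -0.15 (SE 0.22). Aqp1 was at 0.33 (SE 0.13, edgeR adjusted p = 0.131). The class median of the larger vessel genes was -0.04 without Cre replicate 3, -0.30 without Cre replicate 1, -0.10 without GFP replicate 1 and -0.11 without GFP replicate 4.

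**Figure D3:**
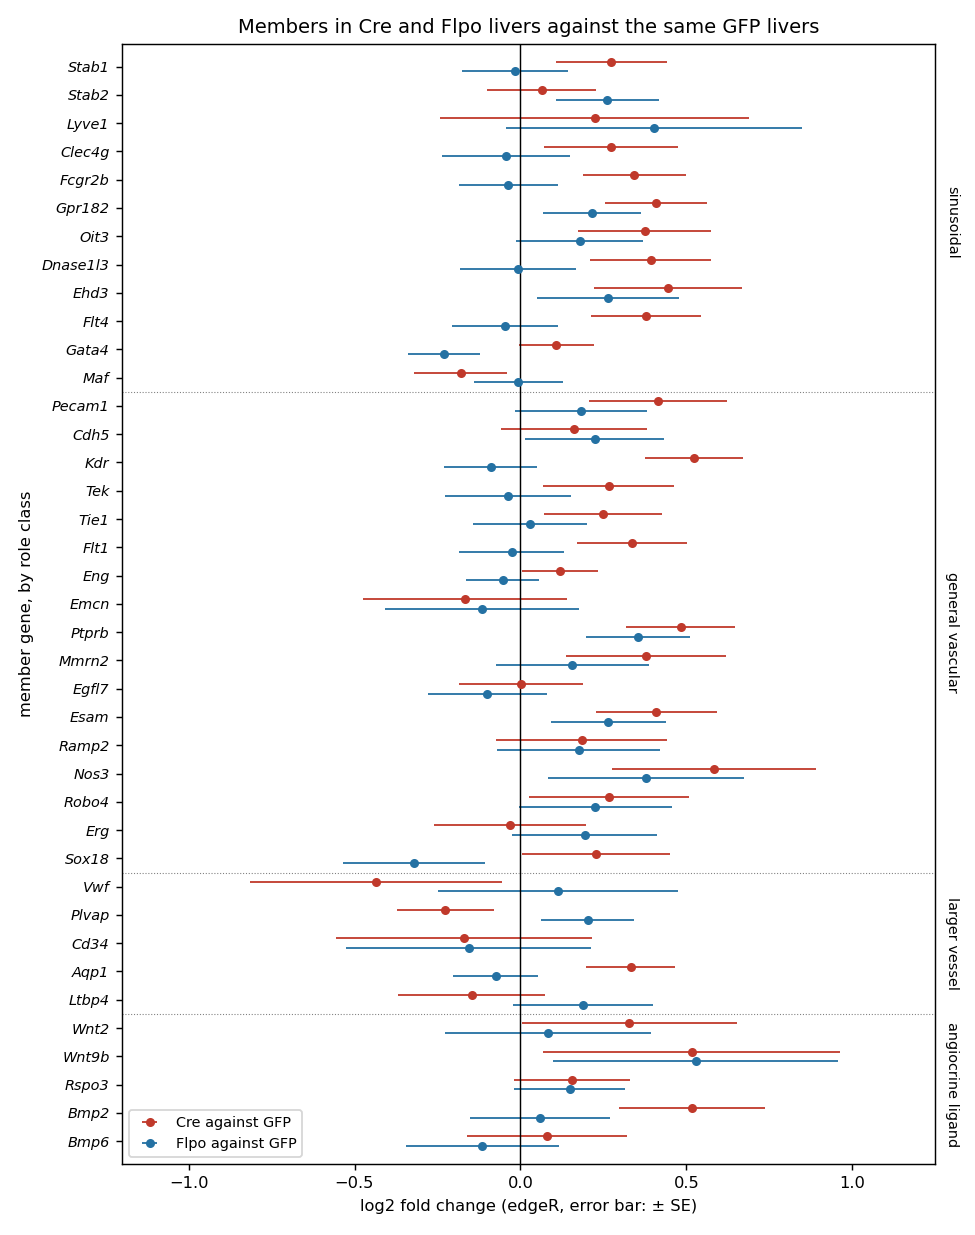
Log2 fold change of each of the 39 genes in Cre (red) and Flpo (blue) against the same 5 GFP livers, with bars of 1 SE from edgeR, ordered by role class. Most red points lie right of 0 and most blue points lie nearer to 0, and among larger vessel genes the red points lie left of 0 except Aqp1.

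In Flpo against GFP the median log2 fold change of the endothelial genes was 0.08, with 22 of 39 above 0 (49.1% of all genes), and 0 of 39 were called, where 0.0288% of all genes were called (4 of 13905). At an unadjusted p under 0.05 there were 2 genes, Ptprb higher and Gata4 lower (9.73% of all genes), and limma-voom and DESeq2 also called 0. The sinusoidal median was -0.01 and the general vascular median 0.16. Both comparisons with GFP use the same 5 control livers, so any likeness between them is not independent. Without GFP replicate 2 the median of the 39 genes in Flpo against GFP was -0.03, so its sign rests on that library.

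Flpo and Cre livers share no library. The log2 fold change of Flpo against Cre was above 0 for 11 of 39 genes (49.4% of all genes), with a median of -0.19, but this median was 0.02 on log2(TPM + 1) and 0.03 on log2(TPM + 0.1), where the median of all genes was 0.14 and 0.20. The test called 4 of 39: Kdr, Gata4 and Aqp1 were lower in Flpo and Plvap was higher. The background was 13.7% of all genes called, 7.45% higher and 6.26% lower in Flpo. By class, the medians were -0.24 (sinusoidal), -0.17 (general vascular), 0.33 (larger vessel) and -0.20 (ligands).

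Gata4 is the transcription factor that sets the sinusoidal identity of liver endothelium and lies on chr14:63198922-63271692, minus strand. It was at 15.3, 14.1, 13.3, 12.5 and 13.1 CPM in GFP, at 13.6, 18.4, 14.6, 13.3 and 13.7 CPM in Cre, and between 9.32 and 12.8 CPM in Flpo, with a median of 11.8. Each Flpo liver lay below each Cre liver, while the GFP livers overlapped with both. The log2 fold change of Gata4 in Flpo against Cre was -0.34 (SE 0.11, edgeR adjusted p = 0.0448). The call of Gata4 held in 11 of 26 alternatives. Its fold change was -0.25 (edgeR adjusted p = 0.147) without Cre replicate 2, the highest liver, and the adjusted p lay between 0.0506 and 0.0804 when GFP replicates 3 and 5, Cre replicate 3 and Flpo replicates 3 to 6 were each left out. On log2(TPM + 1) it was -0.11 (limma adjusted p = 0.501).

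Aqp1 (chr6:55336432-55348555, plus strand; its upstream window is printed above) encodes a water channel of endothelium and bile duct cells. It was at 32.01, 30.4, 31.8, 36.1 and 37.3 CPM in GFP and at 31.7, 36.9, 43.0, 44.3 and 55.1 CPM in Cre. In Flpo it ranged from 25.4 to 37.7 CPM, with a median of 33.2. Cre replicates 3, 4 and 5 lay above every Flpo and GFP liver, while Cre replicates 1 and 2 lay among them. The log2 fold change of Aqp1 in Flpo against Cre was -0.41 (SE 0.13, edgeR adjusted p = 0.0422). The call of Aqp1 held in 14 of 26 alternatives. It was lost with library totals (-0.27, edgeR adjusted p = 0.164), no low-count filter, limma-voom, only the 2 groups in the fit and both TPM scales (-0.18 each, limma adjusted p of 0.391 and 0.389). Without Cre replicate 5 it was -0.29 (edgeR adjusted p = 0.124), and the adjusted p lay between 0.0539 and 0.0779 without Cre replicate 3 or 4 or Flpo replicate 2, 4 or 5. Without Cre replicate 1, Aqp1 passed in Cre against GFP (0.42, edgeR adjusted p = 0.0487).

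Plvap (chr8:71497765-71511752, minus strand) moved against the other 3. It was at 39.6, 40.6, 46.1, 48.5 and 39.7 CPM in GFP, at 33.0, 35.8, 28.9, 35.1 and 50.5 CPM in Cre, and between 36.7 and 56.6 CPM in Flpo, with a median of 54.2. Cre replicates 1 to 4 lay below every Flpo liver, and Cre replicate 5 lay among them. The log2 fold change of Plvap in Flpo against Cre was 0.43 (SE 0.14, edgeR adjusted p = 0.0495), the largest adjusted p of the 4 calls. The call of Plvap held in 8 of 26 alternatives, among them library totals alone, DESeq2, limma-voom and both TPM scales. Of the 4 calls, only that of Plvap held on the TPM scales. It was lost without any single GFP library, any of Cre replicates 1 to 4 or any of Flpo replicates 3 to 6. The edgeR adjusted p was then from 0.0565 to 0.139. The call was also lost with DESeq2-type size factors, with either other filter, with only the 2 groups in the fit and with the replicate block.

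Flt4, the VEGF-C receptor of sinusoidal and lymphatic endothelium, is named after its values were seen as the third gene with each Flpo liver below each Cre liver, beside Kdr and Gata4. It ranged from 5.08 to 9.65 CPM in Flpo and from 10.1 to 11.7 CPM in Cre, with a log2 fold change of -0.43 (SE 0.16, edgeR adjusted p = 0.0856). Such groups, lower in Flpo, were 3 of 39 among these genes and 3.32% of all genes.

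**Figure D4:**
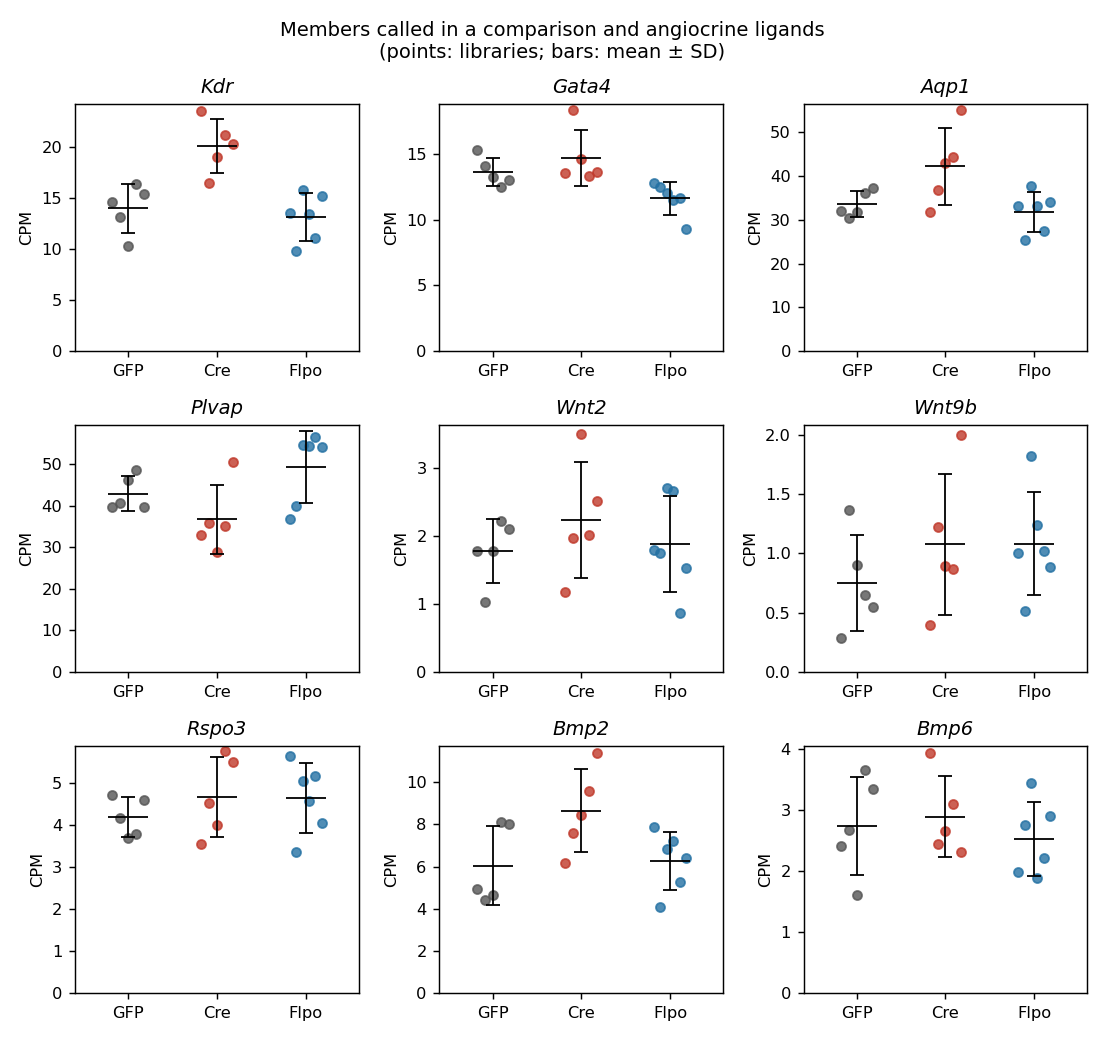
CPM of the 4 called genes and the 5 ligands in each liver (points) by group, with mean and SD (bars) over 5 GFP, 5 Cre and 6 Flpo livers. Kdr is higher in each Cre liver than in each GFP and Flpo liver, though Cre replicate 2 and GFP replicate 4 both round to 16.4 CPM, Plvap is lowest in 4 of the Cre livers, and the ligand groups overlap.

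The 5 ligands were not called in any of the 3 comparisons (edgeR; of the 15 tests, 2 had an unadjusted p under 0.05, both for Bmp2; limma-voom and DESeq2 also called 0). Bmp2, which sets hepcidin together with Bmp6, came nearest. It was at 4.94, 4.40, 4.66, 8.11 and 8.04 CPM in GFP and at 6.19, 7.61, 8.47, 9.56 and 11.4 CPM in Cre, and in Flpo it ranged from 4.09 to 7.87 CPM with a median of 6.62. GFP replicates 1 to 3 lay below every Cre liver, and GFP replicates 4 and 5 lay among them. The log2 fold change of Bmp2 in Cre against GFP was 0.52 (SE 0.22, edgeR adjusted p = 0.152), as large as that of Kdr with a wider error, and that in Flpo against Cre was -0.46 (SE 0.21, edgeR adjusted p = 0.164).

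Bmp6 was at 2.41, 2.66, 1.60, 3.65 and 3.34 CPM in GFP, at 3.93, 2.44, 2.65, 3.10 and 2.32 CPM in Cre, and between 1.89 and 3.44 CPM in Flpo. The groups overlapped throughout, with a log2 fold change of 0.08 in Cre against GFP (SE 0.24, edgeR adjusted p = 0.884).

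Rspo3, which amplifies Wnt signals through Lgr receptors, was at 4.72, 4.16, 3.69, 3.78 and 4.60 CPM in GFP, at 3.54, 4.52, 3.99, 5.77 and 5.49 CPM in Cre, and between 3.37 and 5.64 CPM in Flpo. Its log2 fold change was 0.15 in Cre and 0.15 in Flpo, both against GFP (SE 0.17 each, edgeR adjusted p of 0.639 and 0.806). Of the ligands it had the narrowest error, and the GFP livers lay inside the range of the Cre livers.

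Wnt2, the central vein and sinusoidal Wnt, was at 1.77, 1.02, 1.77, 2.22 and 2.11 CPM in GFP, at 1.18, 1.98, 3.51, 2.02 and 2.51 CPM in Cre, and between 0.863 and 2.71 CPM in Flpo. Its log2 fold change in Cre against GFP was 0.33 (SE 0.32, edgeR adjusted p = 0.58). Wnt9b rested on 9 to 60 counts per library, with means of 0.751 ± 0.408 (SD, n = 5), 1.08 ± 0.595 (n = 5) and 1.08 ± 0.435 CPM (n = 6) in GFP, Cre and Flpo. Its log2 fold changes of 0.52 and 0.53 against GFP carried SE of 0.45 and 0.43, and the groups overlapped.

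Genes that respond to these ligands or carry their signals are given from lists of the pathways, and these read hepatocytes as well as endothelium. Of 26 BMP pathway and iron genes, 5 rose and 2 fell in Cre against GFP, where 3.97% of all genes were called higher and 5.58% lower, and 0 were called in Flpo against GFP (edgeR; 3 had an unadjusted p under 0.05, DESeq2 called 1 and limma-voom 0). Id1, an inhibitor of helix-loop-helix factors and a direct BMP target, rose in Cre from 5.26 ± 1.44 to 16.3 ± 10.8 CPM (SD, n = 5 each), by 1.63 on the log2 scale (SE 0.34, edgeR adjusted p = 0.00564). Id2 rose by 1.06 (SE 0.22) and Atoh8, a BMP-responsive factor of hepatocytes, by 1.01 (SE 0.17). All 3 had each Cre liver above each GFP and each Flpo liver. The hepcidin gene Hamp was at 109 to 514 CPM in GFP, 262 to 1815 CPM in Cre and 117 to 605 CPM in Flpo, and did not pass in Cre against GFP (1.73, SE 0.54, edgeR adjusted p = 0.0578). Its near-identical copy Hamp2 fell in Cre from 17.7 ± 11.7 to 1.13 ± 0.373 CPM (-3.98, SE 0.58, edgeR adjusted p = 0.00069), but how the counting shared reads between these copies is not given, so the value of each copy is uncertain.

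Of 29 Wnt pathway and target genes tested of 30 listed, 3 rose and 1 fell in Cre against GFP (9.55% of all genes called), and 0 were called in Flpo against GFP (edgeR; 7 had an unadjusted p under 0.05, and DESeq2 and limma-voom called 0). Axin2, a feedback target of Wnt signalling, rose in Cre from 7.89 ± 1.76 to 14.7 ± 3.59 CPM (0.89, SE 0.21, edgeR adjusted p = 0.0114). The co-receptor Lrp5 rose by 0.50 (SE 0.11) and the Wnt inhibitor Notum by 0.33 (SE 0.09), and the receptor Fzd4 fell by a log2 fold change of -0.76 (SE 0.19). The call of Lrp5 held in 24 of 26 alternatives and was lost on both TPM scales. Notum was not called when GFP replicates 2 and 4 and Cre replicates 2 and 3 were each left out (edgeR adjusted p from 0.055 to 0.0708). It was also lost with library totals (0.18, edgeR adjusted p = 0.175), no low-count filter, only the 2 groups in the fit and both TPM scales (0.14 each). Of the pericentral genes of hepatocytes, glutamine synthetase (Glul) was at -0.28 (SE 0.13, edgeR adjusted p = 0.182) and the ammonium transporter Rhbg at -0.84 (SE 0.29, edgeR adjusted p = 0.075) in Cre against GFP. Both passed as lower in Cre with library totals alone (Glul -0.43 and Rhbg -0.98, edgeR adjusted p of 0.0259 and 0.0262) and on both TPM scales. Rhbg also passed with DESeq2 and without GFP replicate 2. In Flpo against Cre, where 13.7% of all genes were called, 3 of the 29 rose, Glul by 0.68, Rhbg by 1.46 and Fzd4 by 0.94, and 6 fell, among them Axin2 (-0.98) and Lrp5 (-0.76). In Cre against GFP the BMP list had a median log2 fold change of 0.13 and the Wnt list one of 0.02. Genes called lower in that comparison included Hamp2 and Fzd4. The BMP targets Id1, Id2 and Atoh8 and the Wnt target Axin2 were called higher in it, and the 5 ligands were not called. The errors of the ligands were wide there, as for Bmp2 (0.52, SE 0.22) and Wnt9b (0.52, SE 0.45). A link between ligands and targets was not tested.

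**Figure D5:**
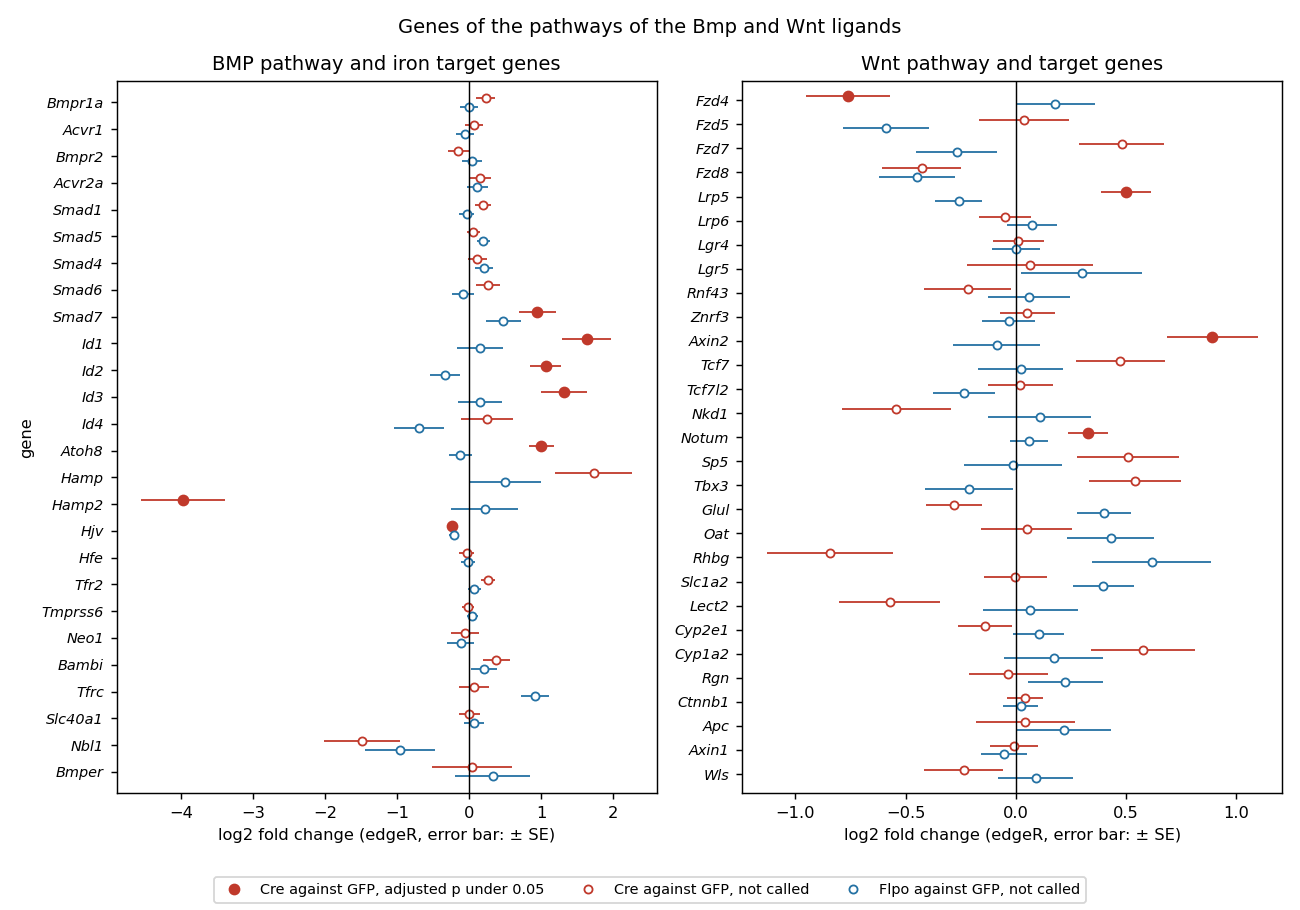
Log2 fold change with bars of 1 SE (edgeR) of 26 BMP pathway and iron genes (left) and 29 Wnt pathway genes (right) in Cre (red) and Flpo (blue) against GFP. Filled points have an adjusted p under 0.05; they include Id1, Id2, Atoh8 and Hamp2 on the left and Axin2, Lrp5, Notum and Fzd4 on the right, and no Flpo point is filled.

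Partners of the VEGF, angiopoietin, Notch and apelin receptors (20 tested of 23) held 1 gene that rose and 1 that fell in Cre against GFP, a share near the 9.55% of all genes called. Nrp1, a co-receptor of Kdr, rose from 40.4 ± 4.49 to 66.1 ± 20.8 CPM (SD, n = 5 each), by 0.71 (SE 0.21, edgeR adjusted p = 0.0437), and the call held in 11 of 26 alternatives. Nrp1 lost the call when GFP replicates 1, 3, 4 and 5, Cre replicates 2 to 4 and Flpo replicates 3 and 6 were each left out, with edgeR adjusted p from 0.0502 to 0.116, and with library totals (0.56), no low-count filter, limma-voom, the replicate block and log2(TPM + 1) (0.45, limma adjusted p = 0.147) and log2(TPM + 0.1). Nrp2, the co-receptor of Flt4, fell from 20.6 ± 4.13 to 12.1 ± 2.25 CPM (-0.77, SE 0.15, edgeR adjusted p = 0.00283), with each Cre liver below each GFP and each Flpo liver. In Flpo against Cre Nrp2 rose by 0.91 and the Notch target Hes1 fell by a log2 fold change of -0.85 (edgeR adjusted p = 0.0169; 0.0506 without Cre replicate 1 and 0.0545 without Cre replicate 2). The call of Hes1 was also lost on both TPM scales. The ligand Vegfa was at 0.44 (SE 0.17, edgeR adjusted p = 0.113) in Cre against GFP.

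A second list of 39 endothelial genes, none of them among the first 39, gave a median of 0.18 in Cre against GFP, with 31 above 0 (50.2% of all genes) and 0 called (edgeR; 1 had an unadjusted p under 0.05, and DESeq2 and limma-voom called 0). In Flpo against Cre 2 of these 39 genes were called, both lower, where 13.7% of all genes were called and 6.26% lower. They were the adhesion molecules Selp and Icam1, with log2 fold changes of -1.08 and -0.48 (SE 0.34 and 0.14, edgeR adjusted p of 0.0405 and 0.0274). Selp was not called without Cre replicate 1 (-0.78, edgeR adjusted p = 0.14) or 3, or Flpo replicate 1, 2, 3 or 5 (edgeR adjusted p from 0.058 to 0.0921). Icam1 was not called without Cre replicate 2 or 5 or Flpo replicate 6 (edgeR adjusted p from 0.0535 to 0.0769). Both calls were also lost with library totals (Selp -0.94, Icam1 -0.34), with the replicate block and on both TPM scales (on log2(TPM + 1), Selp -0.44 and Icam1 -0.22), and that of Selp with limma-voom.

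Within groups the endothelial genes varied together from liver to liver, and markers of several other cell types also had positive median correlations with them. After removal of group means, the median correlation over the 16 libraries between pairs of the 39 genes was 0.25, with 75.03% of 741 pairs above 0. With markers of other cells the median was 0.20 for Kupffer cells and macrophages, 0.17 for stellate cells and fibroblasts, 0.12 for hepatocytes, 0.11 for lymphocytes and neutrophils and 0.00 for cholangiocytes. These correlations are a description, since all pairs share the same libraries and their scaling. Pairs of sinusoidal genes had a median of 0.38, pairs of general vascular genes 0.31 and mixed pairs of these classes 0.34, so the classes were not set apart from each other. Larger vessel genes did not move together (-0.05 over 10 pairs), and ligands did so weakly (0.15 over 10 pairs). Oit3, Pecam1, Gpr182 and Flt4 followed the mean of the other 38 genes most closely, with r of 0.87, 0.86, 0.85 and 0.85. Wnt9b and Wnt2 did not follow it (0.02 and 0.01), and Gata4 ran against it (-0.60).

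The mean log2 CPM of sinusoidal genes minus that of general vascular genes, each centred on its mean over all libraries, was 0.01 ± 0.07 (SD, n = 5) in GFP, 0.01 ± 0.15 (n = 5) in Cre and -0.01 ± 0.11 (n = 6) in Flpo. The groups overlapped, and the balance of the classes moved less between groups than between livers of a group. Livers of a group did differ in the whole set. In Flpo replicate 2 only 4 of the 39 genes lay above their mean over all libraries, against 30 in Flpo replicates 3 and 6, and in GFP they numbered 8 to 25 and in Cre 17 to 29. Summed TPM of the 39 was 157 in Flpo replicate 2 and 255 in Flpo replicate 6. Without Flpo replicate 2 the median fold change of the 39 in Flpo against GFP was 0.10, with 30 above 0.

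Some markers of other liver cells also differed between Cre and GFP livers, and none was called in Flpo against GFP (edgeR). For the counts that follow, 3.97% of all genes were called higher and 5.58% lower in Cre against GFP. Of 15 stellate cell and fibroblast markers, 5 fell in Cre against GFP (Col1a1, Col1a2, Col3a1, Lrat and Lum), with a median log2 fold change of -0.34. The summed TPM of the 15 was 217 to 287 (GFP), 123 to 242 (Cre) and 234 to 319 (Flpo). The 12 Kupffer cell and macrophage markers had a smallest edgeR adjusted p of 0.27 and a median of -0.23 in Cre against GFP, with a summed TPM of 152 to 257 (GFP), 130 to 182 (Cre) and 132 to 333 (Flpo). Of 7 cholangiocyte markers tested, 1 was called higher in Cre against GFP (Sox9). The log2 fold changes of 5 of the 7 were below 0, with a median of -0.17. Their summed TPM was 36.4 to 48.4 (GFP), 23.8 to 46.1 (Cre) and 33.6 to 82.8 (Flpo). Hepatocyte markers had 2 of 10 higher (Apoa1 and Pck1) and 1 lower (Ttr) in Cre against GFP, with a median log2 fold change of 0.43. The 10 lymphocyte and neutrophil markers tested had a median of 0.36 and a smallest edgeR adjusted p of 0.46. The marker genes named here were chosen after their values were seen. No marker of these lists was at 0 in a library except Cftr of the cholangiocytes. The part of these cells in the differences of Kdr, Gata4, Aqp1, Plvap and the ligands was not tested. TMM factors, which scale each library for its makeup, lay between 0.898 and 0.987 in Cre, between 0.988 and 1.08 in GFP, and between 0.9997 and 1.06 in Flpo.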

How the data were processed

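RNA of 16 livers was measured by paired-end sequencing of 150-base reads after polyA enrichment, per the labels' protocols. The authors deposited estimated counts and TPM per gene; per the submitters' processing notes, cutadapt, STAR and mm10 were used. No source used here names the counting program, annotation or strand setting. Among the deposited counts 31.7% were not whole, and each was the deposited TPM times 1 factor per gene and 1 per library (10812 genes, largest log2 deviation 1.07e-09), so both units carry the same measurement.

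Groups and replicate numbers came from the titles. Counts were rounded and tested in 1 fit of all 16 libraries with edgeR 4.0.16 (R 4.3.3, TMM, filterByExpr with a minimum count of 10, robust quasi-likelihood). P-values were adjusted by Benjamini-Hochberg over the 13905 genes tested, called under 0.05. SEs were derived as the absolute log2 fold change over the square root of F. CPM use TMM-scaled totals. The test was checked on simulated data. Alternatives used DESeq2 1.42.0, limma 3.58.1 (voom, and log2 of TPM plus 1 or 0.1), other scalings and filters, and each library left out.

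The 39 genes, the other lists and the rule for named genes (genes called, the 5 ligands, the smallest p of a class, and up to 4 called genes per list) were chosen with earlier results of these data known. Gene positions are from GENCODE M21 (GRCm38). No pair of libraries was alike within counting noise.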

Additional observations from a re-analysis of the deposited data

Results flagged for a closer look

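In a check of 117 groups of libraries (39 genes in 3 groups) for a library far from the rest of its group, 7 were found, and chance alone flags about 1 in 20 groups. Cre replicate 1 gave 3 of them, each the highest of its group: Lyve1 at 12.7 CPM with the next Cre liver at 2.89 CPM, Erg, an ETS factor of endothelium, at 5.40 CPM with the next at 2.94 CPM, and Ltbp4 at 47.0 CPM with the next at 26.2 CPM. Cre replicate 5 was the highest for Nos3, at 4.47 CPM with the next at 1.72 CPM. Gata4 was high in Cre replicate 2, at 18.4 CPM with the next at 14.6 CPM, and low in Flpo replicate 6, at 9.32 CPM with the next at 11.5 CPM. Maf was low in Flpo replicate 2, at 15.8 CPM with the next at 21.7 CPM.

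The effects of Cre and Flpo were each taken against the same GFP livers. They differed by the direct contrast of Flpo against Cre for 4 of the 39 genes, where 13.7% of all genes were called. The log2 difference was -0.61 for Kdr, -0.34 for Gata4, -0.41 for Aqp1 and 0.43 for Plvap (edgeR adjusted p of 0.00695, 0.0448, 0.0422 and 0.0495). The call held in 24 of 26 alternatives for Kdr, 11 for Gata4, 14 for Aqp1 and 8 for Plvap.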

How the results depend on the processing

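None of the 11 named members and 15 named pathway or endothelial genes changed direction where it was called; the named markers of other cells were not run under the alternatives. Of the 39 members, the number called in Cre against GFP (1 as reported) was 0 with library totals alone, on log2(TPM + 1), on log2(TPM + 0.1) and at an adjusted p under 0.01, 2 with DESeq2, and 0 to 2 when each library was left out. The members' median in that comparison was 0.0467 on log2(TPM + 1) and 0.0834 on log2(TPM + 0.1), and 0.20 to 0.35 with a library left out. In Flpo against Cre (4 as reported) the number called was 2 with library totals alone and with limma-voom, 1 without a low-count filter, on log2(TPM + 1), on log2(TPM + 0.1), with only the 2 groups in the fit and at an adjusted p under 0.01, and 1 to 4 with a library left out. The members' median there was 0.0190 on log2(TPM + 1) and 0.0337 on log2(TPM + 0.1), and -0.25 to -0.10 with a library left out. In Flpo against GFP it was 0 in all of these, with a median of -0.03 to 0.15 with a library left out. The cause was not tested.

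The split of calls over all genes moved with the scaling, and on TPM the test changed as well. In Cre against GFP 552 were higher and 776 lower as reported, 300 and 1656 with library totals alone, and 218 and 1909 on log2(TPM + 1). In Flpo against Cre 1036 were higher and 870 lower as reported, 1810 and 454 with library totals alone, and 2443 and 327 on log2(TPM + 1). Over all genes, DESeq2 called 26 higher and 46 lower in Flpo against GFP, against 0 and 4 as reported.

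The replicate numbers are not said to pair the libraries. Over 15 same-numbered pairs the correlation of deviations had a median of 0.01, and 1 exceeded 0.1. Over 70 pairs with different numbers the median was 0.00, and 2 exceeded 0.1. Such correlations over all genes cannot show that no pairing existed. With a replicate block, without Flpo replicate 6, Kdr was called in Cre against GFP (median of the members 0.31), 3 members were called in Flpo against Cre (Kdr, Aqp1 and Fcgr2b, so not Gata4, with adjusted p = 0.0886, or Plvap, with adjusted p = 0.0959; median -0.24) and 0 in Flpo against GFP. Wnt9b had the fewest counts, 9 to 60 per library; how far depth limits its value was not tested.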
